A study of Mus musculus with 12 samples.

Results

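Interferon-stimulated genes are the genes that cells switch on after interferon binds its receptors, and 45 of them were followed in mouse liver under 4 combinations of maternal and offspring diet. The genes were chosen by their known function, with earlier offspring-diet results of these libraries in view (Adar, Ifi44, Samd9l, Rnf213, Trim12c, Gbp11 and Ifit1 had been noted as higher). Of the 45, 44 were found in the table of 12086 genes by gene symbol, and Gbp6 was not analysed here. Because the offspring-diet comparisons chose the genes, their values in those comparisons are given as a description, and tests are given for maternal diet, which was not used. All animals were wild-type male C57BL/6 mice killed in the fasted state at postnatal day 84, from litters standardised to 6 pups. Dams ate a control chow or an obesogenic diet, richer in sugar and lipid and given with sweetened condensed milk, through mating, pregnancy and lactation. Sons were weaned at day 21 onto either diet, so that the groups are CC (control dam, control son), CO (control dam, obesogenic son), OC (obesogenic dam, control son) and OO (both obesogenic). By the labels 12 animals were sequenced (3 per group), of which 11 libraries are analysed here: 3 each of CC, OC and OO and 2 of CO. Library numbers such as CO.0 come from the column names, and they neither pair the groups nor tell which sons shared a litter.

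Type I interferons signal through the kinases Jak1 and Tyk2 to a complex with Stat2 and Irf9 that binds the interferon-stimulated response element (ISRE) in promoters. Type II interferon, interferon gamma, acts mainly on promoters with gamma-activated sites (GAS). In the liver, hepatocytes, resident macrophages and endothelial cells all carry interferon receptors and can express the genes that follow. The 44 genes were ordered by role: 4 STAT and IRF factors, 21 effectors typical of type I interferon, 4 nucleic acid sensors, 8 interferon-inducible GTPases and 7 ubiquitin and ADP-ribose enzymes.

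Values are scaled counts, close to CPM, and are not divided by gene length, so levels are compared between libraries and not between genes. The depth recovered from the values was 3976160 reads in OO.1, 27837604 in OO.0 and at most 7969056 in the other 9 libraries. The 44 genes had between 6 reads (Oas1a in CC.1) and 12629 reads per library, with a median of 156. Differences are on the log2(value + 0.5) scale with their standard error (SE) from limma, fitted to all 11 libraries. A gene is called where limma's adjusted p over all 12086 genes is under 0.05.

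The interferon-stimulated genes were higher in the livers of obesogenic-fed sons, whichever diet the dam had eaten. Between CO and CC, 43 of the 44 genes lay above 0, with a median difference of 0.88 (1.84-fold), and the exception was Irf1. Between OO and OC, 43 genes lay above 0 as well, with a median of 0.92 (1.89-fold), and the exception was Trim25 at -0.01. The median of all genes was -0.01 and 0.00 in these comparisons, which share no library. Averaged over both kinds of dam, the median of the 44 was 0.96 (1.95-fold), 20 genes differed by at least 1 and 2, Gbp11 and Ifit1, by more than 2.

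In CO against CC, 15 of the 44 genes were called, all higher, where 1.79% of all genes were called and 1.01% were called higher. In OO against OC, 5 genes were called, all higher (Adar, Ifi44, Rnf213, Samd9l and Trim12c), where 0.165% of all genes were called and 0.0745% were called higher. The average over dams called 35 of 44, all higher, where 3.96% of all genes were called and 2.24% were called higher. Adar, Ifi44, Rnf213 and Trim12c were called in both single comparisons. These counts rest on the comparisons that chose the genes, as do the counts by role and motif below, and nothing is read from them. They also moved with single libraries: in CO against CC the count was 0 without CC.0, 0 without CC.2, 4 without CO.0 and 2 without CO.1. In OO against OC it was 0 without OC.0, OC.2 or OO.0, 1 without CC.2, OC.1 or OO.2, 2 without CC.0, and 9 without OO.1. For the average over dams the count stayed between 30 and 36 with each library left out.

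The libraries themselves separated by offspring diet for most of the genes. In 39 of 44 genes both CO libraries lay above all 3 CC libraries, where 17.0% of all genes did. In 34 of 44 genes every OO library lay above every OC library, where 6.60% of all genes did. In 31 of 44 genes all 5 libraries of obesogenic-fed sons lay above all 6 of control-fed sons, where 2.08% of all genes did. The comparisons that chose the genes underlie these shares too, so they are a description and nothing is read from them. The genes whose libraries overlapped in both single comparisons were Irf1, Trim21 and Trim25.

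**Figure D1:**
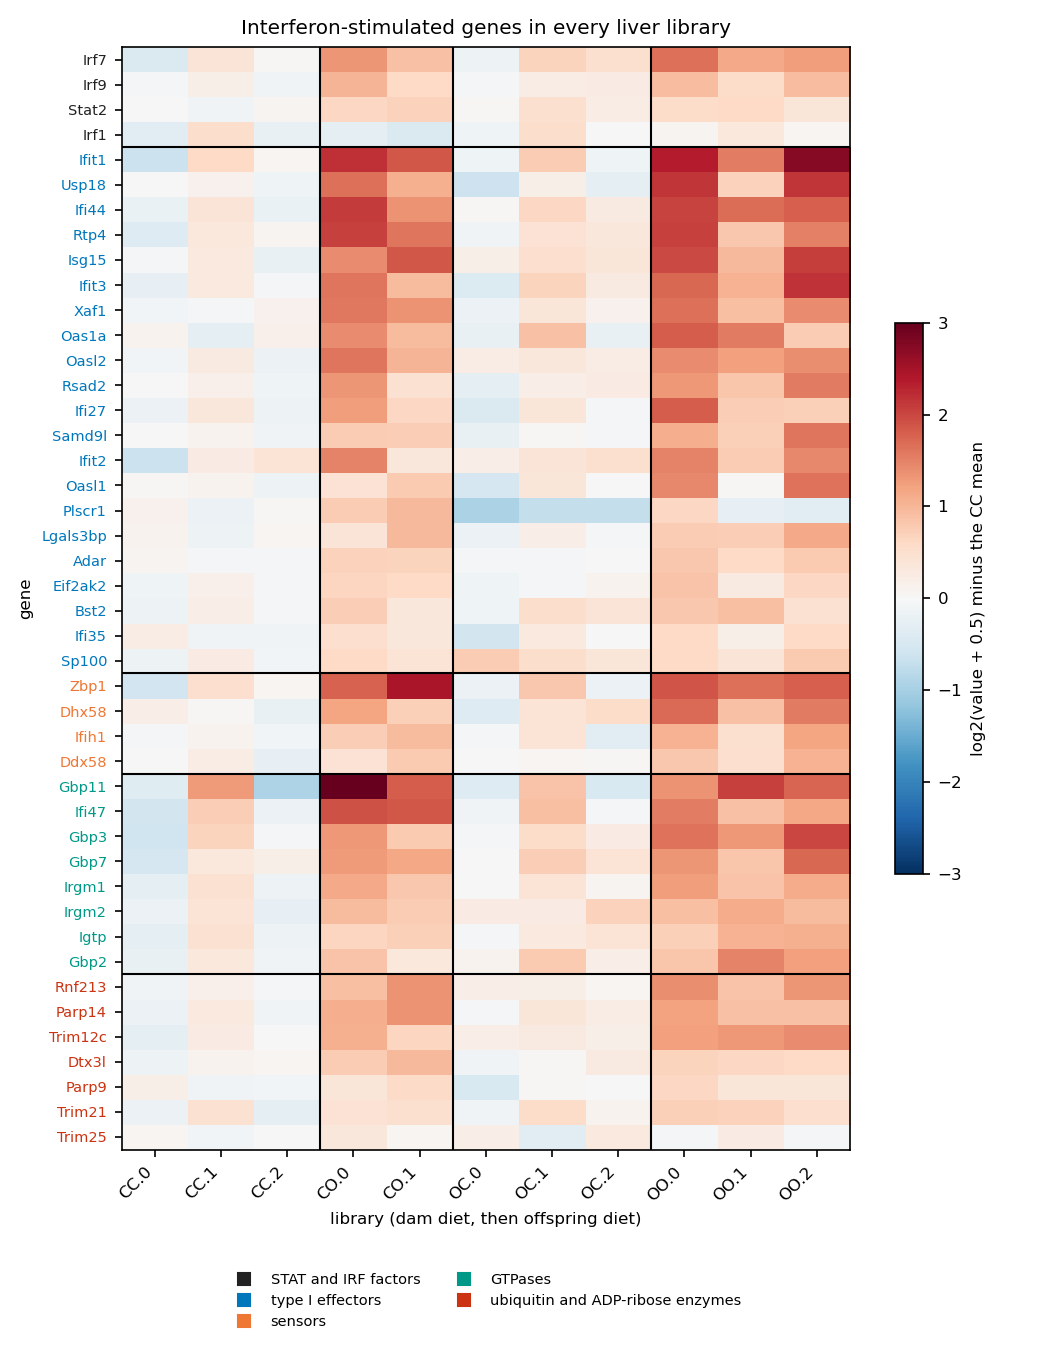
Each row is one of the 44 genes, ordered by role (label colour) and by its average offspring-diet difference, and each column is one of the 11 libraries. Colour shows log2(value + 0.5) minus the CC mean, with the scale ending at 3, which Gbp11 in CO.0 exceeds at 3.47. The CO and OO columns are red in most rows, Irf1 and Trim25 are pale throughout, and Plscr1 is blue in all OC libraries.

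The STAT and IRF factors carry the signal to the promoters. By the average over dams 3 of the 4 were called higher (2.24% of all genes were), with a median difference of 0.60 over the 4. Stat2, a factor activated by the type I receptor, stood at 39.5, 36.5 and 41.7 in CC, 60.7 and 63.7 in CO, 40.4, 54.4 and 45.5 in OC, and 57.4, 59.2 and 50.8 in OO. Both CO libraries lay above CC, while OC.1 overlapped the OO libraries, and the difference was 0.66 (SE 0.14) in sons of control dams and 0.26 (SE 0.12) in sons of obesogenic dams. Irf9, a DNA-binding factor that works with Stat2, stood at 33.2, 39.5 and 32.1 in CC, 70.7 and 53.2 in CO, 33.3, 40.6 and 41.6 in OC, and 66.8, 50.8 and 67.0 in OO. All 5 libraries of obesogenic-fed sons lay above the other 6, and the average difference was 0.74 (SE 0.12), or 1.67-fold.

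Irf7, a factor that amplifies type I interferon production and is itself induced by interferon, stood at 13.9, 25.1 and 19.6 in CC, 48.0 and 35.4 in CO, 17.1, 30.6 and 26.6 in OC, and 61.0, 42.3 and 46.1 in OO. Its groups did not overlap by offspring diet, and the average difference was 1.06 (SE 0.19), or 2.08-fold. Irf1, a factor best known as an early target of interferon gamma, was the only gene of the 44 that was lower by the average, at -0.17 (SE 0.17). Irf1 stood at 28.1, 51.0 and 30.3 in CC, 29.2 and 25.8 in CO, 31.8, 51.2 and 34.9 in OC, and 37.3, 43.7 and 36.6 in OO. Its highest CC and OC libraries, CC.1 and OC.1, stood above all libraries of obesogenic-fed sons. Of these 4 promoters, that of Stat2 held the ISRE core GAAANNGAAA, read on both strands within 250 bases before to 50 after the RefSeq start (GRCm38.p6). The stretch is shown 5′ to 3′ on the strand of the gene, with the core in capitals (here its reverse complement), from chr10:128270256-128270305, plus strand, with the core 222 bases upstream of the start.
Stat2: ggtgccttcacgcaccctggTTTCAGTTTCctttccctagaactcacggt

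The 4 sensors detect viral or displaced nucleic acid. Each was called higher by the average over dams (2.24% of all genes were), with a median of 0.97. The call of Dhx58 was lost without CO.0, that of Ifih1 without OC.0 and CO.1, and that of Ddx58 without either OC.0 and CO.1 or OC.1 and CO.1. Zbp1, which senses left-handed Z-form nucleic acid, stood at 2.22, 5.24 and 3.73 in CC, 13.3 and 21.6 in CO, 3.05, 6.54 and 3.08 in OC, and 14.4, 12.2 and 13.4 in OO. Its average difference was 1.87 (SE 0.24), or 3.65-fold. Dhx58 (LGP2), a helicase that modulates the other sensors of its family, stood at 9.35, 8.23 and 6.77 in CC, 18.8 and 13.5 in CO, 5.99, 10.9 and 12.0 in OC, and 27.1, 15.2 and 24.7 in OO. The lowest library of obesogenic-fed sons, CO.1, lay above the highest of control-fed sons, OC.2, and the average difference was 1.07 (SE 0.21).

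Ifih1 (MDA5), a sensor of long double-stranded RNA, stood at 36.6, 40.8 and 35.5 in CC, 63.3 and 73.1 in CO, 36.0, 49.9 and 29.5 in OC, and 77.7, 52.8 and 86.4 in OO. Ddx58 (RIG-I), a sensor of short RNA with a triphosphate end, stood at 27.4, 31.8 and 22.8 in CC, 37.0 and 46.9 in CO, 26.8, 28.4 and 27.8 in OC, and 48.0, 38.7 and 56.2 in OO. In both genes the groups were separated by offspring diet, with average differences of 0.88 (SE 0.15) and 0.69 (SE 0.12). All 4 sensors were lowest in OO.1 among the OO libraries, which is the shallowest library. The promoters of Ddx58 and Ifih1 both held the ISRE core close to the start, and are shown for that position. The Ddx58 stretch is chr4:40239794-40239843, minus strand, with the core beginning 2 bases after the start, and the Ifih1 stretch is chr2:62646206-62646243, minus strand, where it begins 32 bases after.
Ddx58: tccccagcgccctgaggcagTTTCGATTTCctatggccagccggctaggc
Ifih1: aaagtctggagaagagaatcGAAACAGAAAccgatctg

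The 21 effectors typical of type I interferon had a median of 1.03 by the average over dams. Of the 21, 16 were called higher, where 2.24% of all genes were. Ifit1, which binds viral RNA that lacks the host cap, stood at 3.8, 9.72 and 6.5 in CC, 30.3 and 24.0 in CO, 5.64, 10.9 and 5.72 in OC, and 34.0, 19.1 and 44.4 in OO. The lowest value of obesogenic-fed sons lay above the highest of control-fed sons, and the average difference was 2.03 (SE 0.27), or 4.09-fold. Isg15, a ubiquitin-like protein that is joined to other proteins, stood at 2.69, 3.55 and 2.35 in CC, 8.33 and 11.6 in CO, 3.29, 4.26 and 3.82 in OC, and 12.6, 6.08 and 13.6 in OO. Its average difference was 1.48 (SE 0.21), or 2.78-fold, with OO.1 lowest of the 5 obesogenic libraries.

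Adar, which edits adenosine to inosine in double-stranded RNA, had the largest moderated statistic of the 44. Adar stood at 29.6, 27.1 and 26.7 in CC, 45.2 and 44.3 in CO, 26.6, 26.5 and 28.0 in OC, and 49.0, 42.0 and 48.0 in OO, a wide gap between 2 narrow ranges. The average difference was 0.72 (SE 0.08), or 1.65-fold. Ifi44, an interferon-induced protein with antiviral activity, stood at 2.22, 3.55 and 2.21 in CC, 12.8 and 7.42 in CO, 2.70, 4.26 and 3.23 in OC, and 12.2, 9.40 and 10.3 in OO.

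Its average difference was 1.63 (SE 0.19), or 3.09-fold, with no overlap by offspring diet. Xaf1, which promotes cell death, stood at 3.65, 3.74 and 4.28 in CC, 12.7 and 10.7 in CO, 3.41, 5.17 and 4.26 in OC, and 13.3, 7.74 and 11.3 in OO. Oasl2, a member of the oligoadenylate synthetase family, stood at 2.38, 3.18 and 2.21 in CC, 8.83 and 5.68 in CO, 3.05, 3.35 and 3.08 in OC, and 7.65, 6.64 and 7.52 in OO. Rtp4, a chaperone of receptor transport, stood at 5.23, 8.79 and 7.46 in CC, 30.7 and 22.3 in CO, 6.46, 9.58 and 8.96 in OC, and 30.4, 12.7 and 20.8 in OO. In these 3 genes the libraries of obesogenic-fed sons also lay above all others, with average differences of 1.35 (Xaf1), 1.2 (Oasl2) and 1.53 (Rtp4).

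The remaining effectors differed less or varied more. Sp100, a nuclear body protein, was the lowest at 0.27, and Usp18, the protease that removes Isg15 and dampens interferon signalling, reached 1.63. Bst2 (tetherin), Ifi35, Ifit2, Oasl1 and Sp100 were not called by the average. The promoters of Ifit1 and Isg15 are shown because they hold the core more than once, as Ifit3, Oas1a and Bst2 also do among the effectors.
Ifit1: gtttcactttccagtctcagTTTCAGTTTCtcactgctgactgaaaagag
Isg15: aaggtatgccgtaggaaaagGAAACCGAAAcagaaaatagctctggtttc
The Ifit1 stretch is chr19:34640784-34640833, plus strand, 85 bases upstream of the start, and another copy of the core stands at 104 bases upstream (capitals mark 1 copy). The Isg15 stretch is chr4:156200861-156200910, minus strand, 72 bases upstream, with overlapping copies at 78 and 66 bases.

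**Figure D2:**
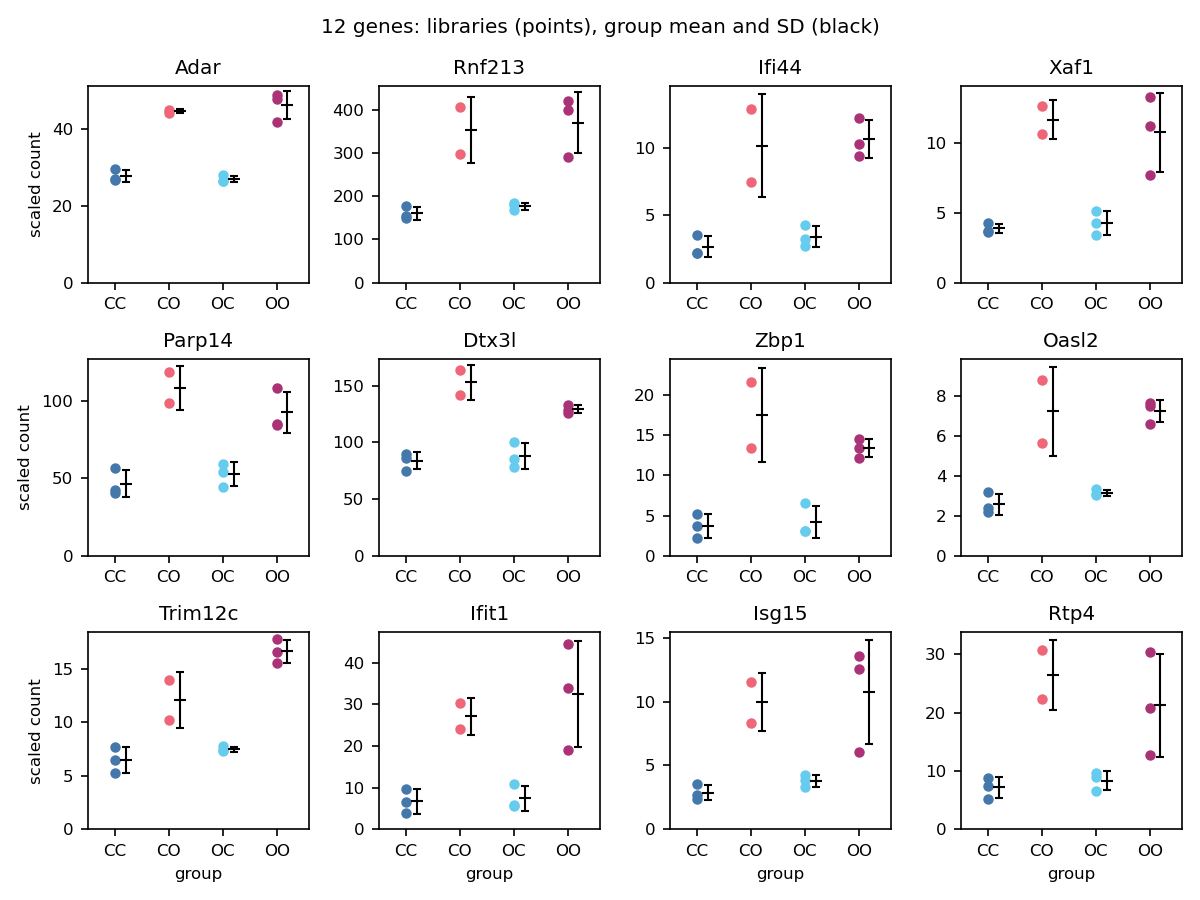
Scaled counts of the 12 genes with the largest moderated statistics, 1 panel each with its own axis from 0; points are libraries, and the black mark is the group mean ± SD (n = 3, and 2 for CO). In each panel the CO and OO libraries stand above the CC and OC libraries.

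The 8 GTPases gather on membranes that enclose microbes and are strongly induced by interferon gamma. They had a median of 1.0 by the average over dams, with 7 of the 8 called higher, where 2.24% of all genes were. Gbp11, a guanylate-binding protein, stood at 3.49, 12.0 and 2.21 in CC, 56.3 and 17.7 in CO, 3.41, 8.82 and 3.23 in OC, and 12.6, 20.7 and 16.7 in OO. CO.0 was the highest by far, and the average difference of 2.18 had the largest SE of the 44, 0.42. Ifi47, an immunity-related GTPase, stood at 7.61, 19.4 and 10.1 in CC, 44.5 and 42.8 in CO, 10.6, 21.9 and 11 in OC, and 34.4, 21.6 and 26.3 in OO. Its CO libraries were the highest, and OC.1 lay above OO.1. Gbp2 was the member not called, at 0.70 (SE 0.19). The authors' way of dividing reads between close paralogs is not known here, so the Gbp, Irgm, Ifit, Oas and Trim12 values are uncertain.

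Of the 7 GTPases with a promoter entry, 6 held the ISRE core. Igtp and Irgm2, neighbours on chromosome 11, are shown because their stretches differ at 2 of 50 bases, and Gbp2 because, like Gbp3 and Gbp7, it holds the core on the other strand. They lie at chr11:58199502-58199551 (Igtp, plus strand, 34 bases upstream), chr11:58214893-58214942 (Irgm2, plus strand, 64 bases upstream) and chr3:142620584-142620633 (Gbp2, plus strand, 59 bases upstream).
Igtp: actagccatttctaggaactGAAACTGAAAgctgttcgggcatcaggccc
Irgm2: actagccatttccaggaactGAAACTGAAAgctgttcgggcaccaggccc
Gbp2: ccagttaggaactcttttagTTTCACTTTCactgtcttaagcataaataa

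The 7 ubiquitin and ADP-ribose enzymes had a median of 0.71, and 5 of the 7 were called higher by the average, where 2.24% of all genes were. Rnf213, a large ubiquitin ligase known to act on bacteria and at lipid droplets, stood at 149, 176 and 155 in CC, 299 and 407 in CO, 184, 179.7 and 168 in OC, and 422, 291 and 399.8 in OO. Its average difference was 1.08 (SE 0.12), or 2.12-fold, with no overlap by offspring diet. Trim12c, of the TRIM family of ubiquitin ligases, stood at 5.23, 7.67 and 6.5 in CC, 14 and 10.3 in CO, 7.40, 7.75 and 7.34 in OC, and 15.6, 16.6 and 17.8 in OO. Here all OO libraries lay above both CO libraries, and the average difference was 0.98 (SE 0.13).

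Parp14, an enzyme that adds ADP-ribose, stood at 40.6, 56.7 and 42.7 in CC, 98.5 and 118 in CO, 44.2, 59.5 and 54.3 in OC, and 108, 84.6 and 85.0 in OO. Dtx3l, a ubiquitin ligase that works in a complex with Parp9, stood at 75.1, 89.9 and 86.4 in CC, 142 and 164 in CO, 78.1, 85.2 and 100.1 in OC, and 133, 129 and 126 in OO. Their average differences were 1.01 (SE 0.12) and 0.71 (SE 0.09), and in both the CO mean was above the OO mean. Trim21, an antibody receptor with ligase activity, and Trim25, which modifies RIG-I, were not called, at 0.45 and 0.09. The Trim12c promoter held the core 29 bases upstream of the start, at chr7:104353349-104353398, minus strand, and is shown because Trim12c was called in both single comparisons, as Rnf213 was, whose promoter window held no such core.
Trim12c: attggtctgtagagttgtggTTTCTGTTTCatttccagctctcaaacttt

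**Figure D3:**
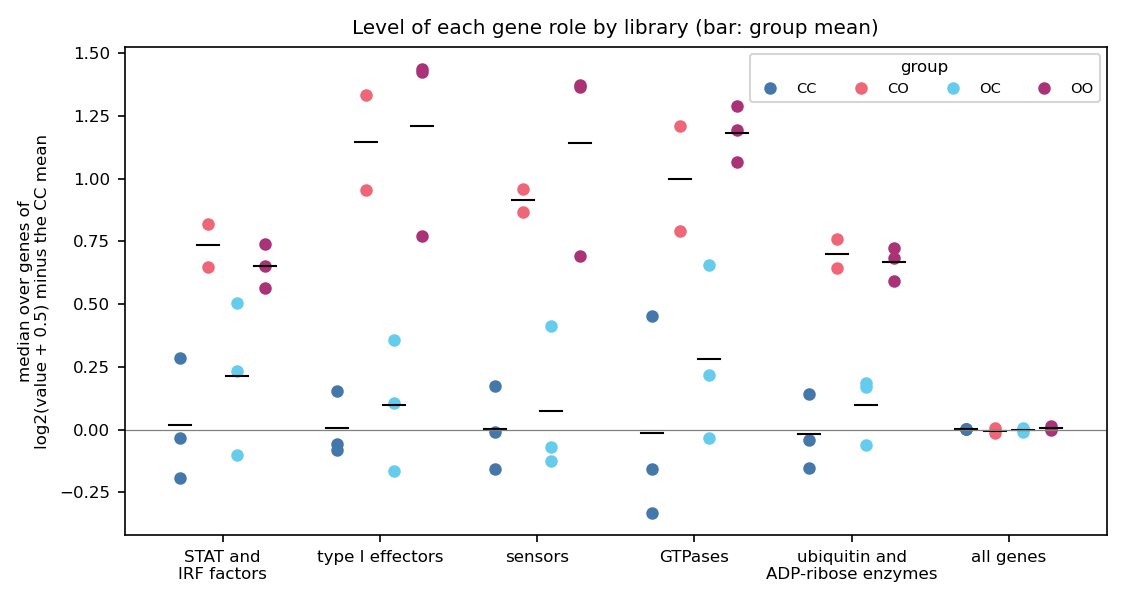
For each role and library, the median over the genes of log2(value + 0.5) minus the CC mean; points are libraries, bars are group means, and the last column gives all 12086 genes. The CO and OO libraries lie above the CC and OC libraries within every role, and over the roles they range from 0.57 to 1.44 against -0.33 to 0.66, while all genes sit near 0.

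Set side by side for the kinds of dam, the offspring-diet difference had no common order. It was larger in CO against CC for 23 genes and larger in OO against OC for 21, with a median interaction of -0.03, and in all 44 the gap was under 1 on the log2 scale. Limma called 0 of the 44 for the interaction, where 0.0331% of all genes were called, and the smallest adjusted p was 0.936. None of the 44 had an unadjusted p under 0.05 by limma, where 551 of all 12086 genes did. By edgeR, DESeq2 and voom 0 of the 44 were called. The interaction is built from the comparisons that chose the genes, and its median SE of 0.33 leaves differences of that size unresolved. The widest gaps were in Gbp11 (2.65 in CO against CC, 1.71 in OO against OC), Ifi47 (1.88 and 0.95), Rtp4 (1.83 and 1.24) and, in the other direction, Usp18 (1.36 and 1.90).

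**Figure D4:**
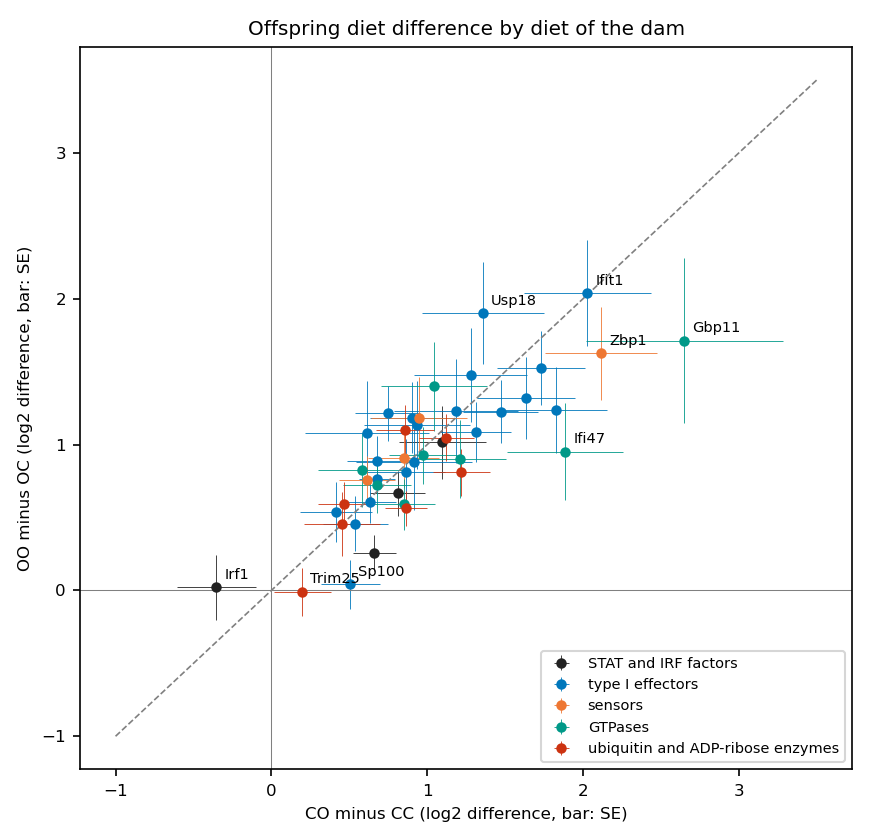
Each point is one of the 44 genes, coloured by role, with its log2 difference between CO and CC on the horizontal axis and between OO and OC on the vertical axis; bars are SE and the dashed line marks equal differences. The genes scatter around the line with 23 below and 21 above it, Irf1 lies left of 0, and Gbp11 and Ifi47 lie furthest below.

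The diet of the dam is the comparison that did not choose the genes, and by it no gene of the 44 passed limma's test. In control-fed sons (OC against CC) the median difference was 0.15, and 33 of 44 genes lay above 0, where 6125 of all 12086 genes did. Here 0 of the 44 were called, where 0% of all genes were called. In obesogenic-fed sons (OO against CO) the median was 0.11, and 31 of 44 lay above 0, where 6240 of all 12086 genes did. Here 0 of the 44 were called, where 0.0414% of all genes were called. For the average over sons the median was 0.14, and 0 of 44 were called, where 0.0331% of all genes were called. The smallest adjusted p values by limma were 0.923, 0.759 and 0.607. At an unadjusted p under 0.05 by limma there were 3, 2 and 4 of the 44, where 636, 715 and 741 of all 12086 genes were. In each, edgeR, DESeq2 and voom called 0 of the 44. The median SE for the average was 0.16, and a p that misses the threshold does not show that a gene was equal between the kinds of dam.

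Plscr1, a phospholipid scramblase with antiviral activity, had the largest average maternal difference and the largest in OC against CC, while in OO against CO that of Gbp11 was larger. Plscr1 stood at 15.4, 12.2 and 14.4 in CC, 23.8 and 27.7 in CO, 6.93, 8.21 and 8.22 in OC, and 21.6, 11.6 and 10.9 in OO. All OC libraries lay below all CC libraries and all OO libraries below both CO libraries, with differences of -0.80 (SE 0.22) and -0.85 (SE 0.25). The average of -0.83 (SE 0.17) had an unadjusted p of 0.000388 and an adjusted p of 0.607 by limma, so it missed the threshold. Leaving out each library in turn gave -0.98 to -0.74, and it was called without OO.0 (-0.98), where the lower 2 OO values remain.

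Sp100 stood at 7.29, 9.72 and 7.60 in CC, 12.7 and 10.9 in CO, 14.1, 12.0 and 10.6 in OC, and 12.6, 10.8 and 14.4 in OO. All OC libraries lay above CC, by 0.55 (SE 0.17, adjusted p 0.923 by limma), and the OO and CO libraries overlapped. Irgm2, a GTPase, stood at 33.9, 51.2 and 32.5 in CC, 74.0 and 65.5 in CO, 45.9, 45.6 and 62.2 in OC, and 72.2, 83.0 and 74.8 in OO. Its OC and CC libraries overlapped, with a difference of 0.40 (SE 0.18).

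For Gbp2, which stood at 3.96, 5.98 and 4.28 in CC, 8.83 and 5.89 in CO, 5.05, 8.36 and 5.43 in OC, and 8.65, 14.1 and 11.6 in OO, the average maternal difference was 0.48 (SE 0.19, adjusted p 0.789 by limma). Gbp11 and Ifi47 were lower in OO than in CO, with differences of -0.93 (SE 0.63) and -0.69 (SE 0.37) (Gbp11 stood at 56.3 in CO.0 and 17.7 in CO.1). Libraries of OC and CC did not overlap in 2 of the 44 genes, Sp100 and Plscr1, where 11.5% of all genes did not overlap. Libraries of OO and CO did not overlap in 8 genes (Irf1, Gbp3, Trim12c and Trim21 higher in OO, Stat2, Plscr1, Ifi47 and Dtx3l lower), where 20.0% of all genes did not. Both shares of the 44, 2 and 8 genes, lie near or under those backgrounds.

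**Figure D5:**
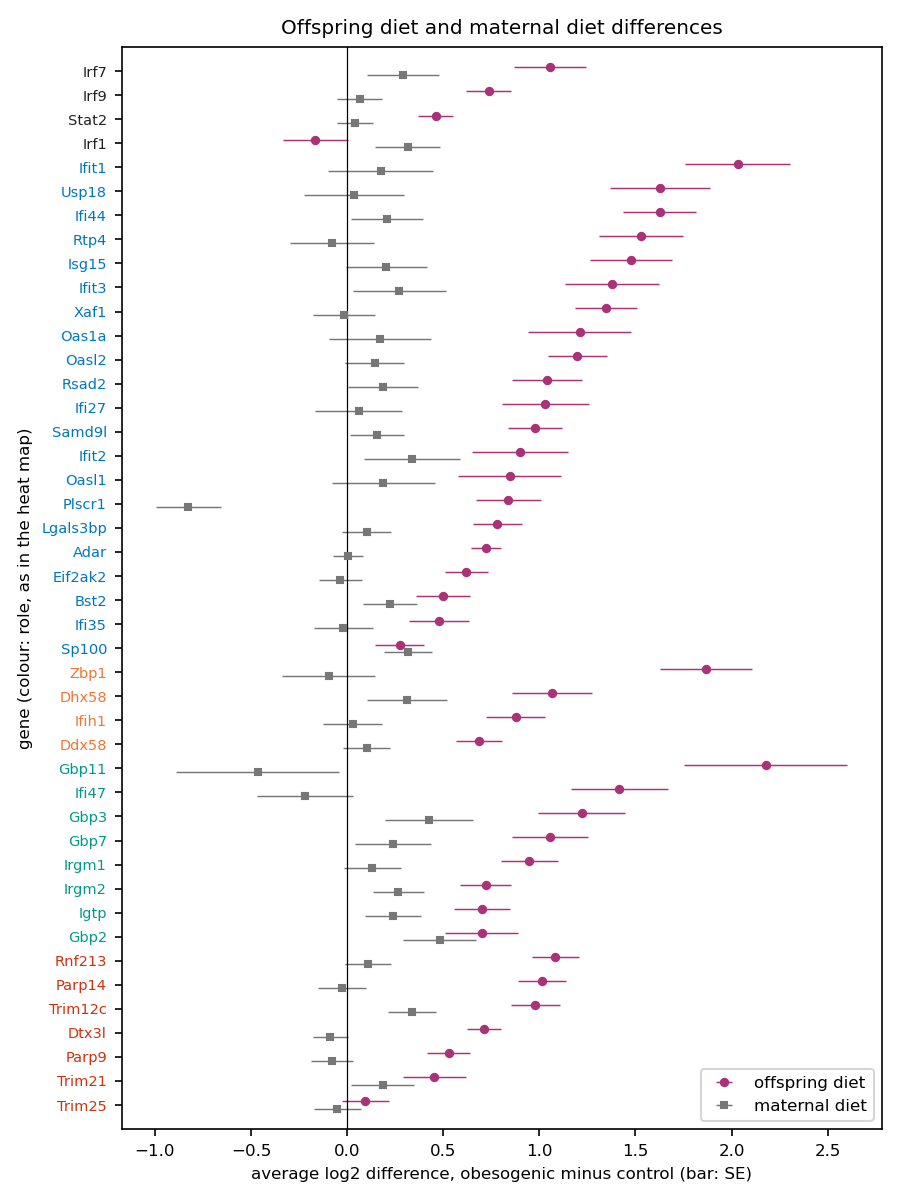
Average log2 difference of each gene, obesogenic minus control, by offspring diet (circles) and by maternal diet (squares), with SE bars; rows are ordered as in the heat map. Offspring-diet differences lie right of 0 for 43 of 44 genes and reach 2.18, while maternal differences run from -0.83 (Plscr1) to 0.48 (Gbp2).

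Within the CC, OC and OO groups most of the genes were highest or lowest in the same library. Relative to the CC mean, the median over the 44 genes was -0.15, 0.24 and -0.09 in CC, 1.04 and 0.79 in CO, -0.11, 0.38 and 0.15 in OC, and 1.24, 0.84 and 1.18 in OO. CC.1 was the highest CC library in 33 of 44 genes (75.0%, against 36.9% of all genes), including all 8 GTPases. OC.1 was the highest OC library in 31 genes (70.5%, against 37.7%), and OC.0 the lowest in 35 (79.5%, against 36.5%). OO.1, the shallowest library, was the lowest OO library in 29 genes (65.9%, against 36.8%), among them 17 of the 21 effectors and all 4 sensors but 2 of the 7 ubiquitin and ADP-ribose enzymes. In CO the roles were split: CO.0 was the higher library in 17 of 21 effectors and 7 of 8 GTPases, and CO.1 in 3 of 4 sensors and 5 of 7 ubiquitin and ADP-ribose enzymes. Genes of 1 library are not independent, so these counts describe libraries and not conditions. OC.1 also held high acute phase transcripts, and the part of that in its interferon values was not tested. Pancreas transcripts had their highest sum, 6028, in OC.0, and their highest CC sum, 907, in CC.1, and their part was not tested either.

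The rest of the pathway was read from lists written with earlier results of these libraries known, in the same offspring-diet average. Over all genes 3.96% were called by it and 2.24% were called higher, and nothing is read from the counts of these lists. None of 17 interferon ligand genes was in the table, so no ligand level is given. Of the receptor genes 1 of 5 was called, Ifngr2, a chain of the interferon gamma receptor, 1.40-fold higher, while Ifnar1 and Il10rb stood at 0.11 and 0.12. Of further factors, Stat3 (1.54-fold) and Irf5 (1.68-fold) were called higher. In both, OC and OO libraries overlapped: OC.1 against the lowest OO library stood at 150.9 against 140.5 for Stat3 and 12.5 against 11.1 for Irf5. Stat3 was highest in CO.1, at 248 against 158.9 in CO.0.

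None of the 7 negative regulators on this list was called by limma, and 3 had an unadjusted p under 0.05: Cish at 1.79 (SE 0.52), Socs3 at 1.2 (SE 0.43) and Pias1 at -0.23 (SE 0.10). Of all 12086 genes, 2339 had such a p. Usp18, which also dampens the signal, is counted with the effectors and was called higher at 1.63. Socs1 was listed but was not in the table. Of the sensing adaptors and kinases 2 of 13 were called higher, Traf3 (1.51-fold) and Rnf135 (1.61-fold), and Myd88 stood at 0.52 without a call. Of 72 other interferon-stimulated genes 31 were called higher and 0 lower, where 2.24% of all genes were called higher. Of these 72, 69 lay above 0, and the median was 0.56, with Trim30a at 2.09-fold, Herc6 at 2.56-fold and Slfn5 at 1.60-fold. Of 13 antigen processing genes 4 were called higher, the peptide transporters Tap1 (2.20-fold) and Tap2 (1.69-fold) and the immunoproteasome subunits Psmb8 (1.75-fold) and Psmb9 (2.77-fold).

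Markers of other cell types are given beside these values, since in bulk liver a change in cell number and a change in RNA per cell cannot be told apart. The summed level of 13 macrophage markers was 458 to 609 in CC, 716 to 748 in CO, 527 to 833 in OC and 776 to 786 in OO. All 13 lay above 0 by the offspring-diet average, with a median of 0.31, and 1 of the 13, Mpeg1, was called. The CC and CO ranges did not overlap, while OC and OO did, and the part of this in the interferon-stimulated genes was not tested. Of 15 lymphocyte and NK cell markers 2 were in the table, Ptprc and Cd79b, with sums of 15.4 to 23.8 in CC, 24.8 to 33.0 in CO, 23.5 to 32.1 in OC and 27.1 to 32.5 in OO, so that the CO sums lay above all CC sums and OC and OO overlapped. By the offspring-diet average Ptprc, a marker of all leukocytes, stood at 0.40 and the B cell gene Cd79b at -0.59, neither called, and their part was not tested. T cell markers such as Cd3e and Cd8a were not among the genes of the table. None of 5 plasmacytoid dendritic cell markers was in the table. Of 9 neutrophil markers 3 were in the table, at sums of 3.46 to 5.98 in CC, 11.8 to 33.2 in CO, 5.17 to 7.05 in OC and 6.37 to 8.85 in OO. All 3 lay above 0 by the offspring-diet average, with a median of 1.35 (2.55-fold), and 1 was called higher. In OO against OC 2 lay above 0 and 0 were called. The CO sums lay above all CC sums, while OC and OO overlapped, and the part of this in the interferon-stimulated genes was not tested. The sum of 7 endothelial markers was 369 to 392 in CC, 404.0 to 404.2 in CO, 400 to 426 in OC and 370 to 429 in OO. Here too the CO sums lay above all CC sums, while OC and OO overlapped. By the offspring-diet average 5 of the 7 lay above 0, with a median of 0.03, and 0 were called. Their part in the interferon-stimulated genes was not tested. Hepatocyte markers, 7 of 8 in the table, were abundant in every library, with sums of 59700 to 62640 in CC, 55740 to 59450 in CO, 47860 to 63570 in OC and 41950 to 50430 in OO. The CO sums lay below all CC sums, while OO and OC overlapped. By the offspring-diet average 6 of the 7 hepatocyte markers lay below 0, with a median of -0.14, and 1, the urea cycle gene Cps1, was called lower. The part of this shift in the interferon-stimulated genes was not tested.

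Some libraries also held transcripts from outside the interferon pathway. Pancreas transcripts were highest in OC.0 and CO.1, with sums of up to 6028 in OC and 3846 in CO against at most 907 in CC and 128 in OO. Acute phase transcripts were highest in CO.1 and OC.1, at up to 26410 and 17750 against at most 3558 in CC and 4005 in OO. The sum in CO.0, 4092, also lay above all CC and OO sums. Without OC.0 and CO.1 the average over dams called 20 of the 44 genes instead of 35, and 30 without OC.1 and CO.1, while the median difference stayed between 0.85 and 1.03 in all alternatives.

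Promoters of 36 of the 44 genes were in the RefSeq table. The ISRE core GAAANNGAAA, on either strand, stood in 18 of the 36 genes (50%), against 356 of 9184 genes of the table with a promoter (3.88%) and 3.44% of all 32851 promoter windows of 300 bases. The GAS core TTCNNNGAA stood in 11 of the 36 (30.6%), against 764 of 9184 genes (8.32%) and 8.30% of all windows. Of the 36 promoters, 6 held both cores and 13 held neither. By role, the ISRE core stood in 1 of 4 STAT and IRF factors, 7 of 18 effectors, 2 of 2 sensors, 6 of 7 GTPases and 2 of 5 ubiquitin and ADP-ribose enzymes. For the GAS core these were 1 of 4, 7 of 18, 0 of 2, 3 of 7 and 0 of 5, in the same order. The offspring-diet differences, which chose the genes, ran from 0.45 to 2.03 with a median of 0.91 in the 18 genes with the core, of which 15 were called. In the 18 genes without it they ran from -0.17 to 1.63 with a median of 0.84, and 12 were called. Over all genes 3.96% were called. Outside the 44, the core stood in the promoters of 338 genes of the table, of which 23 (6.80%) were called higher by the offspring-diet average and 2 lower. Of the 8810 other genes without the core, 168 (1.91%) were called higher. The 23 include Ifit3b, Oas3, Ddx60, Trim30a and Slfn5, known interferon targets, and also Saa4, Fosl2 and Slc37a1. A match to these letters is a description and not a binding site.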

How the data were processed

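Liver RNA of 12 labelled mice was sequenced from TruSeq libraries, per the labels' protocols. The deposited table holds a signal: the values show gene counts that the authors scaled with a single factor for each column, since between 95.72% and 97.34% of values in a library are whole multiples of 1 read (tolerance 0.01). Per the submitters' processing notes, reads were aligned with Bowtie 1.2.3 to mm8. No source used here gives the counter, strand setting or annotation. A floor of 3 reads lay between 0.1 and 0.829, for counting error only. Symbols matched 11965 of 12086 identifiers.

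Limma 3.58.1 (R 4.3.3) was fitted with an intensity trend to log2(value + 0.5) of all 11 libraries, 1 mean per group (7 residual and 4.66 prior degrees of freedom), for genes reaching 1 in 3 libraries, with Benjamini-Hochberg adjustment. The p-values measure the spread between these libraries, since litters are not given. The script recovered known changes of well-read genes in simulated data, with a common spread and no shifts shared within a library. Those settings are simpler than these libraries, so that run checks the script alone. Members and lists were chosen with earlier results of these data known. Values in every library are printed for the 12 largest statistics, STAT and IRF factors, sensors, genes lower by offspring diet and the 3 largest maternal differences; any other gene named was picked once its values were known.

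Alternatives were edgeR 4.0.16, DESeq2 1.42.0 and voom on recovered reads, pseudocounts of 0.1 and 2, median-of-ratios scaling, a minimum of 5 or none, only the 2 groups compared, and leaving out each library. Leaving out OC.0 and CO.1 (pancreas transcripts) or OC.1 and CO.1 (acute phase) was chosen after seeing the data. Of the list of kinases and further factors, some results are not reported here.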

Additional observations from a re-analysis of the deposited data

How the results depend on the processing

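The direction of the median difference by offspring diet held in every alternative run: 0.79 to 1.04 in CO against CC, 0.80 to 1.11 in OO against OC and 0.85 to 1.03 for the average. The median for the average maternal diet ran from -0.01 to 0.18 and that of the interaction from -0.30 to 0.08, so neither has a settled sign. Counts of called genes depended on the setting. In CO against CC (15) they were 27 by DESeq2, 9 with only the 2 groups compared, 1 without OC.0 and CO.1 and 1 without OC.1 and CO.1, and 0 to 18 with each library left out. In OO against OC (5) they were 8 by edgeR, 27 by DESeq2, 9 by voom, 1 with only the 2 groups, 0 without OC.0 and CO.1, and 0 to 9 with each library left out. For the average over dams (35) they were 20 without OC.0 and CO.1 and 30 to 36 with each library left out. For the average maternal diet (0) they were 0 to 1, the 1 being Plscr1 without OO.0. In OC against CC, OO against CO and the interaction they were 0 in every alternative run. The cause of these shifts was not tested. Of the 19 genes followed singly by the offspring-diet average, the 18 called ones stayed called when any 1 library was dropped, except Stat2 without CO.1 (0.44) and Dhx58 without CO.0 (0.95). Further calls were lost without OC.0 and CO.1 for Isg15 (1.32), Stat2 (0.39), Ddx58 (0.59) and Ifih1 (0.81), and without OC.1 and CO.1 for Ddx58 (0.61). Leaving out a CO library leaves 1, assumed to vary like the other groups. No paired analysis was possible because the labels give no litter or pairing, and the columns are matched to groups and not to single labelled animals.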
